A study of Caenorhabditis elegans with 4 samples.

Results

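Lysosomes and the gut lumen of Caenorhabditis elegans break down protein with a few families of acid proteases, and the genes of those families, with the saposin-like genes, are described here in early adults of the fatty acid synthase mutant fasn-1(g14) and of wild type. Members were chosen by name: every row of the deposited table whose sequence name maps in the WBcel235 annotation to a symbol of asp, cpr, cpl, cpz or spp and a number, with at least 1 CPM in 2 or more of the 4 libraries. This gave 42 genes of 12977 tested, namely 11 asp, 7 cpr, 1 cpl, 2 cpz and 21 spp genes. All 42 rows with such a name passed the filter, and 17 further genes with such names in the annotation were not analysed here.

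The mutant group was strain GG14, of genotype fasn-1(g14), and the wild-type group was N2 (Bristol), with 2 biological replicates each, numbered 3 and 4. Whole animals were used, so every value is a mixture of all tissues. Both groups shared one history, per the labels' protocols. Both were kept fed for at least 4 generations. Eggs were held at 1 per µl without food for 8 days at 20 °C, which kept the hatchlings in L1 arrest, a halt of development. Then 750 live animals per sample recovered on HT115 bacteria with an empty vector, on plates holding 1 mM IPTG with carbenicillin at 25 µg/ml; collection followed at about 68 hours, when eggs were present. Both groups were starved, so starvation itself was not compared.

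Aspartyl proteases cut proteins at acid pH with a pair of aspartates in the active site, while cathepsins B, L and Z are papain-type cysteine proteases. In the worm many of these enzymes are made in the intestine, where they serve digestion in the gut lumen and turnover in lysosomes. Saposins are small proteins held together by disulfide bonds; in mammals they present sphingolipids to lysosomal hydrolases, and several worm relatives, the caenopores, form pores in bacterial membranes and protect the gut.

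Levels are CPM, the authors' normalized values, in which 1 read was worth between 0.0628 and 0.0676 CPM. Depth was 13960509 to 15889424 recovered reads per library. The library totals differ, at 989581 and 1028880 CPM in the mutant, against 943913 and 941734 CPM in wild type. Library size was thus not the only scaling. Changes are mutant minus wild type on the log2(CPM + 1) scale, which understates the change of low genes, with the standard error (SE) of the fit. A gene "rose" or "fell" when its limma p, adjusted by Benjamini-Hochberg over all 12977 genes, was below 0.05. Levels of different genes are compared only as CPM per kb of exon, and positions are those of the whole gene in WBcel235. The mutated gene fasn-1 stood at 353 and 285 CPM in the mutant, against 369 and 409.9 CPM in wild type, with a limma adjusted p of 0.1196, so its transcript does not check the labels. Across the genome 572 genes rose (4.41%) and 1386 fell (10.7%), and replicate spread was wider in the mutant (a chi-square of 14.4 per degree of freedom in the mutant, against 4.77 in wild type).

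Among the 42 members 15 rose (35.7%, against 4.41% of all genes tested), 3 fell (7.14%, against 10.7%) and 24 did not pass. Of the 3 that fell, spp-7 reached 1 CPM in the wild-type libraries only. The cysteine cathepsins carried most of the gain in summed level. The asp sum was 4746 and 4446 CPM in the mutant, against 4568 and 4261 CPM in wild type, so the groups overlapped; as a share of all reads it was 0.480% and 0.432% in the mutant, against 0.484% and 0.452% in wild type, where the order of the means turns round. For the other families the direction was the same on both scales. The cpr sum was 2603 and 2662 CPM in the mutant, against 1951 and 1999.9 CPM in wild type, a ratio of means of 1.33. For cpl-1, the only gene of its family, the ratio was 1.41, and for the summed cpz genes it was 1.38. The spp sum was 1250.5 and 1253 CPM in the mutant, against 948 and 992 CPM in wild type, a ratio of 1.29. Summed in the same way over all genes tested, the ratio was 1.07, so part of each family ratio is shared by the whole table. All members together took 1.05% and 1.01% of the mutant reads, and 0.931% and 0.917% of the wild-type reads. In these bulk samples more cells of a type and more RNA per cell cannot be told apart.

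**Figure D1:**
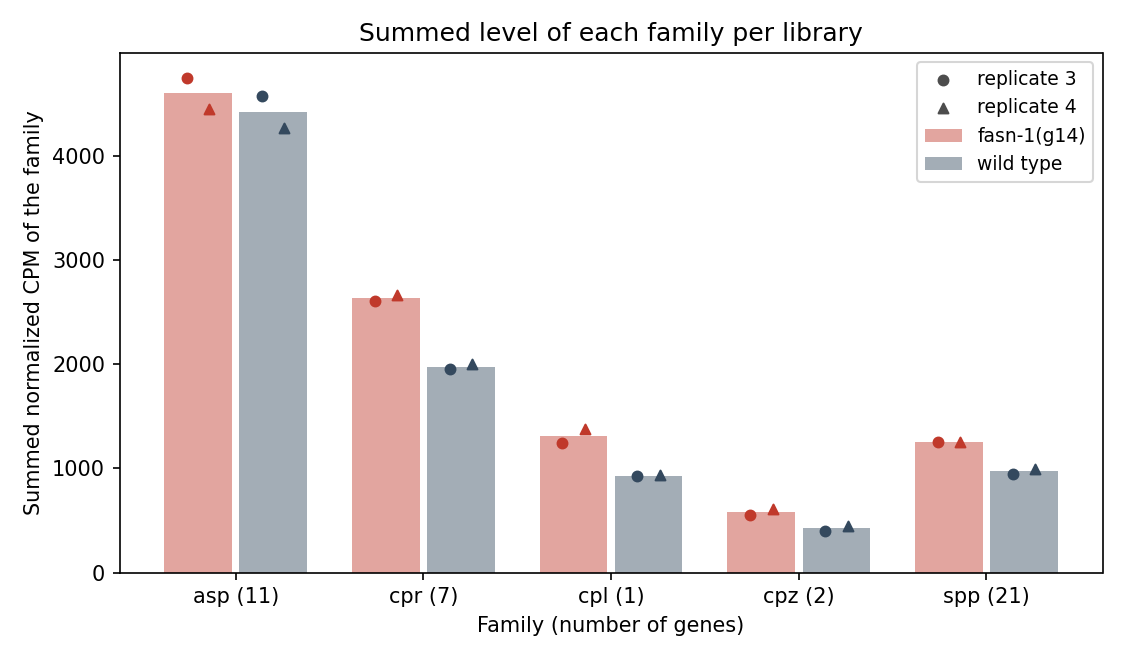
Summed normalized CPM of each family (vertical axis, linear) for fasn-1(g14) and wild type, with bars at the mean of 2 libraries and points for each library. The asp points of the groups overlap, whereas in the cpr, cpl, cpz and spp families both mutant points lie above both wild-type points.

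The aspartyl protease genes split into 4 that rose and 7 that did not pass, with no falls; 36.4% of the asp genes rose, against 4.41% of all genes tested. Their median change was 0.13, against 0.0019 for all genes tested. The genes with the 2 highest levels per kb, asp-1 and asp-6, were both lower in the mutant without passing the test, and the gains lay in genes of middle or low rank in the family.

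Of the genes that rose, asp-13 (F28A12.4, chrV:8641602-8643193) had the largest change of the family. It stood at 199.8 and 193 CPM in the mutant, against 124 and 106 CPM in wild type (1.71-fold; log2 change 0.77, SE 0.09; limma, adjusted p = 0.00699). Both mutant libraries lay well above both wild-type libraries, and the 2 mutant values were close together.

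The lysosomal cathepsin D-like gene asp-4 (R12H7.2, chrX:13218985-13221462), whose product takes part in the necrotic death of worm neurons, stood at 541 and 521 CPM in the mutant, against 351 and 383 CPM in wild type (1.45-fold; log2 change 0.53, SE 0.08; limma, adjusted p = 0.0109). Its groups did not overlap. The other aspartyl protease known from neuronal necrosis, asp-3 (H22K11.1), gave 666 and 666 CPM in the mutant, against 652 and 609.9 CPM in wild type. Its change of 0.08 had a 95% interval of -0.10 to 0.25 and did not pass (limma, adjusted p = 0.507), while the interval of asp-4 ran from 0.35 to 0.71. The intervals do not overlap, though the difference between the genes was not tested.

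The third gene that rose, asp-2 (T18H9.2, chrV:9203077-9204734), stood at 515 and 493 CPM in the mutant, against 384 and 323 CPM in wild type (1.43-fold; limma, adjusted p = 0.0185). The lowest of those that rose, asp-8 (F59D6.3, chrV:3024549-3027931), gave 47.1 and 42.9 CPM in the mutant, against 30.4 and 29.95 CPM in wild type (1.49-fold; limma, adjusted p = 0.0227). In both genes the lower mutant library stood above the higher wild-type library. Per kb of exon asp-8 was at 36.9 CPM in the mutant and 24.7 CPM in wild type, a small part of the level of asp-1.

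That gene, asp-1 (Y39B6A.20), encodes an intestinal aspartyl protease and was the most abundant of the family, at 1125 CPM per kb in the mutant and 1242 CPM per kb in wild type, above 99.3% of tested genes or equal to them. It stood at 1378 and 1302 CPM in the mutant, against 1569 and 1390.1 CPM in wild type (log2 change -0.14, 95% interval -0.36 to 0.08; limma, adjusted p = 0.342). Both mutant values were below both wild-type values, and the group means differed by less than the 2 wild-type values did.

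The second in level, asp-6 (F21F8.7), stood at 882 and 729.8 CPM in the mutant, against 981 and 967 CPM in wild type (log2 change -0.28, SE 0.10; limma, adjusted p = 0.105). Both mutant libraries were below both wild-type libraries, mutant replicate 4 by more than mutant replicate 3. Its neighbour asp-12 (F21F8.4) showed a wider split of the mutant libraries, at 13.2 and 3.30 CPM, against 13.01 and 10.996 CPM in wild type. Mutant replicate 3 was thus at the wild-type level and mutant replicate 4 far below it; the change was -0.73 with both, 0.14 without mutant replicate 4 and -1.59 without mutant replicate 3, where it passed. Of the remaining genes, asp-5 and asp-14 had their mutant values above their wild-type values without passing (changes 0.13 and 0.27; limma, adjusted p = 0.268 and 0.164), and asp-17 lay between 1.51 and 2.97 CPM over the 4 libraries with the groups overlapping.

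Of the 7 cathepsin B-like cpr genes 3 rose, 0 fell and 4 did not pass, a share of 42.9% against the 4.41% of all genes that rose. Their median change was 0.03, because the 4 that did not pass lay between -0.27 and 0.03.

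The most abundant per kb, cpr-6 (C25B8.3, chrX:6607207-6609045), stood at 974 and 1052 CPM in the mutant, against 585 and 639 CPM in wild type (1.65-fold; log2 change 0.73, SE 0.08; limma, adjusted p = 0.00630). The groups lay far apart. The second in level, cpr-9 (F57F5.1, chrV:12003053-12004584), stood at 914 and 852 CPM in the mutant, against 608 and 605 CPM in wild type (1.46-fold; limma, adjusted p = 0.0107). Here the 2 wild-type libraries nearly coincided, well under both mutant libraries. The gut cysteine protease gene cpr-1 (C52E4.1, chrV:11975551-11976756) stood at 137 and 150.3 CPM in the mutant, against 86.6 and 82.2 CPM in wild type (1.70-fold; log2 change 0.76, SE 0.08; limma, adjusted p = 0.00544), with no overlap of the groups.

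The other 4 genes of the family did not pass. By level per kb, cpr-5 and cpr-4 lay between cpr-9 and cpr-1. The third in level, cpr-5 (W07B8.5), stood at 277 and 334 CPM in the mutant, against 384 and 352 CPM in wild type (log2 change -0.27, 95% interval -0.51 to -0.03; limma, adjusted p = 0.116), with both mutant libraries below both wild-type ones. The secreted cathepsin B gene cpr-4 (F44C4.3) gave 253 and 231 CPM in the mutant, against 248 and 272 CPM in wild type, and its groups overlapped (log2 change -0.10; limma, adjusted p = 0.446). The low genes cpr-3 and cpr-8 lay between 16.2 and 25.6 CPM in all libraries, also with overlap.

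The cathepsin L-like gene cpl-1 (T03E6.7, chrV:16592572-16595346), essential for embryonic development in the worm and known to act on yolk, stood at 1242 and 1376 CPM in the mutant, against 926 and 934 CPM in wild type (1.41-fold; log2 change 0.49, SE 0.09; limma, adjusted p = 0.0163). The wild-type libraries were nearly equal and both mutant libraries were above them. At 1100.3 CPM per kb in the mutant it was the most abundant cysteine protease gene of the set, with 782 CPM per kb in wild type.

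The 2 cathepsin Z-like genes moved in opposite directions. Gene cpz-1 (F32B5.8, chrI:2686640-2689429), needed for molting in the worm, stood at 499.7 and 562 CPM in the mutant, against 325 and 377 CPM in wild type (1.51-fold; log2 change 0.60, SE 0.10; limma, adjusted p = 0.0148). Gene cpz-2 (M04G12.2, chrV:13381189-13383077) stood at 56.2 and 49.1 CPM in the mutant, against 70.6 and 73.8 CPM in wild type (0.730-fold; log2 change -0.45, SE 0.10; limma, adjusted p = 0.0304), and was the only protease gene of the set that fell, against 10.7% of all genes tested. Per kb, cpz-1 stood at 535 CPM and cpz-2 at 33.7 CPM in the mutant, and at 353 and 46.1 CPM in wild type. The annotation places 59 bases of cpz-2 over the gene gcy-34 on the other strand, and the library kit does not mark strand, so reads there cannot be assigned to one of the 2 genes. Among the genes that rose, protein-coding genes of the other strand likewise overlap 74 bases of asp-2, 33 of asp-4 and 19 of spp-1. The snRNA gene F32B5.9 of the other strand overlaps 123 bases of cpz-1.

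**Figure D2:**
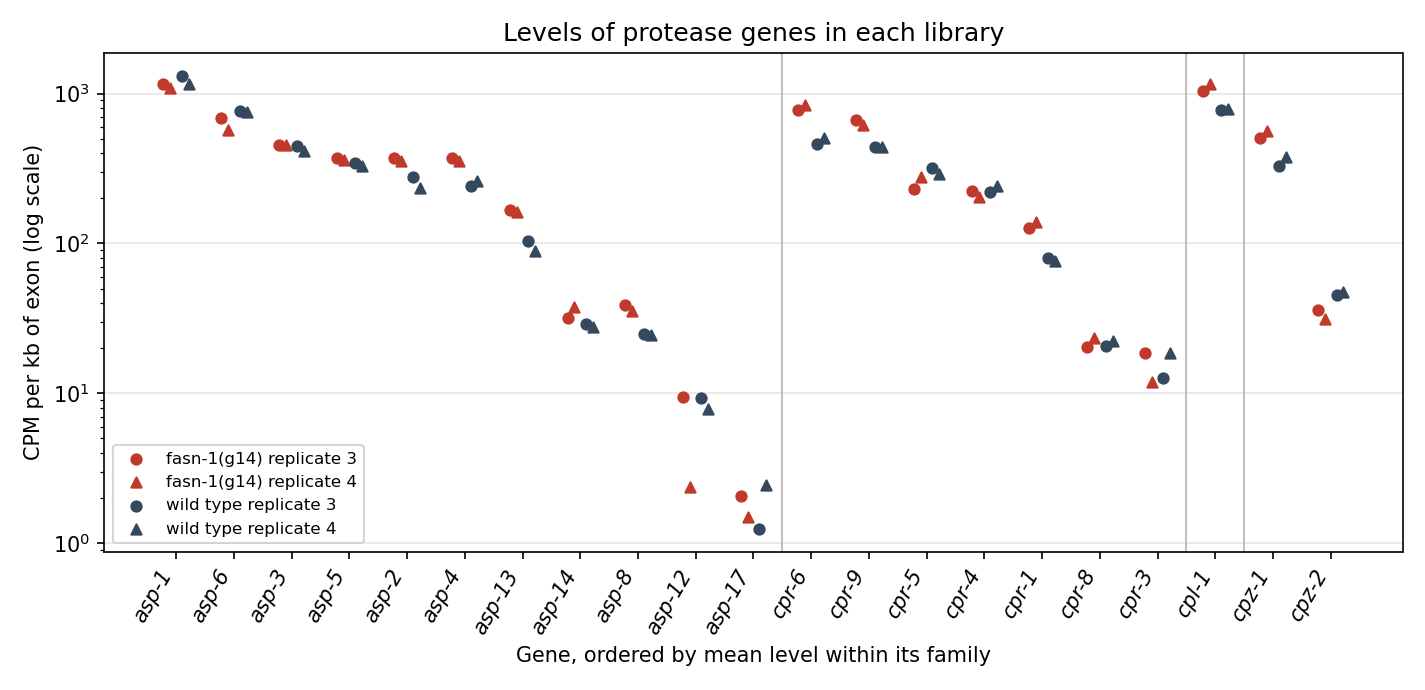
CPM per kb of exon (log axis) of the 21 protease genes in each of the 4 libraries, with families separated by vertical lines and genes ordered by level. The cpr-6, cpr-9, cpr-1, cpl-1 and cpz-1 points of the mutant lie above those of wild type, cpz-2 lies below, and asp-12 has 1 mutant library apart from the other 3 points.

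Of the 21 saposin-like genes 6 rose, 2 fell and 13 did not pass, or 28.6% and 9.52%, against 4.41% and 10.7% of all genes tested. Their median change was 0.09. The calls are given here by level. Of the 11 with a mean of at least 10 CPM, 6 rose (54.5%) and 0 fell, against 5.49% and 7.19% of all genes at that level. Of the 10 under 10 CPM, 0 rose and 2 fell (20.0%), against 2.81% and 15.9% of all genes there. These 10 include spp-7, spp-27, spp-28 and spp-31, which reached 1 CPM in wild type only, and spp-7 is among the 2 that fell. The falling share is near that of all genes at that level, so it is not read as a result about the low members. With libraries rescaled to one total, spp-1, spp-2 and spp-14 did not pass and 3 spp genes rose; with a mean of at least 5 CPM asked for, spp-1 and spp-14 did not pass (limma, adjusted p = 0.0540 and 0.0515), and 4 rose.

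The largest change belonged to spp-8 (C28C12.5, chrIV:8481664-8483621), at 51.0 and 59.9 CPM in the mutant, against 25.5 and 26.3 CPM in wild type (2.14-fold; log2 change 1.06, SE 0.12; limma, adjusted p = 0.00575). Both mutant values were far above both wild-type values. Its neighbour on chromosome IV, spp-10 (C28C12.7), stood at 142 and 132 CPM in the mutant, against 109.5 and 115 CPM in wild type, and missed the threshold (1.22-fold; log2 change 0.28, 95% interval 0.10 to 0.47; limma, adjusted p = 0.0541). Of spp-10, 852 bases overlap the gene hlh-12 on the other strand.

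Pore-forming proteins with known activity against bacteria are encoded by spp-1, spp-3 and spp-5, of which spp-1 and spp-5 rose and spp-3 did not pass. Gene spp-5 (T08A9.9, chrX:7319937-7320354) was the most abundant saposin-like gene per kb, at 958 CPM in the mutant and 677 CPM in wild type. In CPM it gave 363 and 346 in the mutant, against 250.2 and 251 in wild type (1.41-fold; log2 change 0.50, SE 0.07; limma, adjusted p = 0.0107), and the groups were far apart relative to their spread. Gene spp-1 (T07C4.4, chrIII:10355098-10355668) stood at 38.7 and 34.7 CPM in the mutant, against 18.97 and 25.8 CPM in wild type (1.64-fold; log2 change 0.70, SE 0.17; limma, adjusted p = 0.0332), with a wider split between the wild-type libraries.

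All 4 measured genes of one cluster on chromosome X, spp-2 to spp-5, had both mutant values above both wild-type values, as did 31.2% of all genes tested. The cluster also holds spp-6, not analysed here, and spans 5386 bases (chrX:7314969-7320354, WBcel235). Gene spp-2 (T08A9.12, chrX:7315995-7316818) stood at 25.1 and 21.4 CPM in the mutant, against 13.1 and 14.2 CPM in wild type (1.70-fold; limma, adjusted p = 0.0288). Gene spp-4 (T08A9.8, chrX:7318239-7318756) stood at 31.6 and 30.2 CPM in the mutant, against 17.03 and 20.1 CPM in wild type (1.67-fold; limma, adjusted p = 0.0228). Both had clear gaps between the groups. Gene spp-3 (T08A9.7), at 127 and 119.5 CPM in the mutant, against 103 and 104 CPM in wild type, did not pass (1.19-fold; log2 change 0.25; limma, adjusted p = 0.0728). Neighbours share a region and are not independent examples.

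The second saposin-like gene in level per kb, spp-14 (K09F5.3, chrX:7725979-7726383), had the smallest change among those that rose. It stood at 275 and 292 CPM in the mutant, against 208 and 234 CPM in wild type (1.28-fold; log2 change 0.36, SE 0.08; limma, adjusted p = 0.0327). The third, spp-17 (C54G6.5), gave 128 and 158 CPM in the mutant, against 136 and 133 CPM in wild type; the mutant libraries fell on either side of the wild-type ones, and the change of 0.09 had a 95% interval of -0.16 to 0.34 (limma, adjusted p = 0.612). Of the other genes, spp-23 overlapped between the groups, and spp-18 was higher in both mutant libraries without passing.

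Both saposin-like genes that fell had low levels. Gene spp-13 (F08F1.6, chrX:8417419-8418524) stood at 2.09 and 1.49 CPM in the mutant, against 5.59 and 4.45 CPM in wild type (0.357-fold; log2 change -1.11, SE 0.26; limma, adjusted p = 0.0315), and it overlaps a tRNA gene of its own strand by 82 bases and a noncoding RNA gene of the other strand by 106. Gene spp-7 (ZK616.9, chrIV:5412827-5415796) stood at 0.608 and 0.389 CPM in the mutant, against 1.88 and 2.63 CPM in wild type (0.221-fold; log2 change -1.11, SE 0.25; limma, adjusted p = 0.0310). The mutant values of spp-7 rest on 9 and 6 reads, and its fall did not pass with DESeq2 on recovered reads (adjusted p = 0.0727), against 0.0429 with edgeR's quasi-likelihood test.

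The 4 members spp-7, spp-27, spp-28 and spp-31 reached 1 CPM in the wild-type libraries only and so passed the filter through the group in which they were higher. Members that pass this way are lower in the mutant by definition, so their direction is not read as a result. The other 3 besides spp-7 did not pass the test and lay between 0.338 and 0.946 CPM in the mutant, against 1.55 to 2.39 CPM in wild type; all 483 bases of spp-27 lie over the gene twk-10 on the other strand. The 4 are also the members nearest to the 1 CPM limit, and no row with such a name lay outside it. Of the remaining genes, spp-22 was at 2.84 and 1.81 CPM in the mutant, against 4.59 and 4.59 CPM in wild type, without passing (limma, adjusted p = 0.0854), spp-16 was 1.60-fold higher without passing (adjusted p = 0.0729), with 170 bases over F32D8.7 on the other strand, and spp-15, spp-24 and spp-25 overlapped between the groups.

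**Figure D3:**
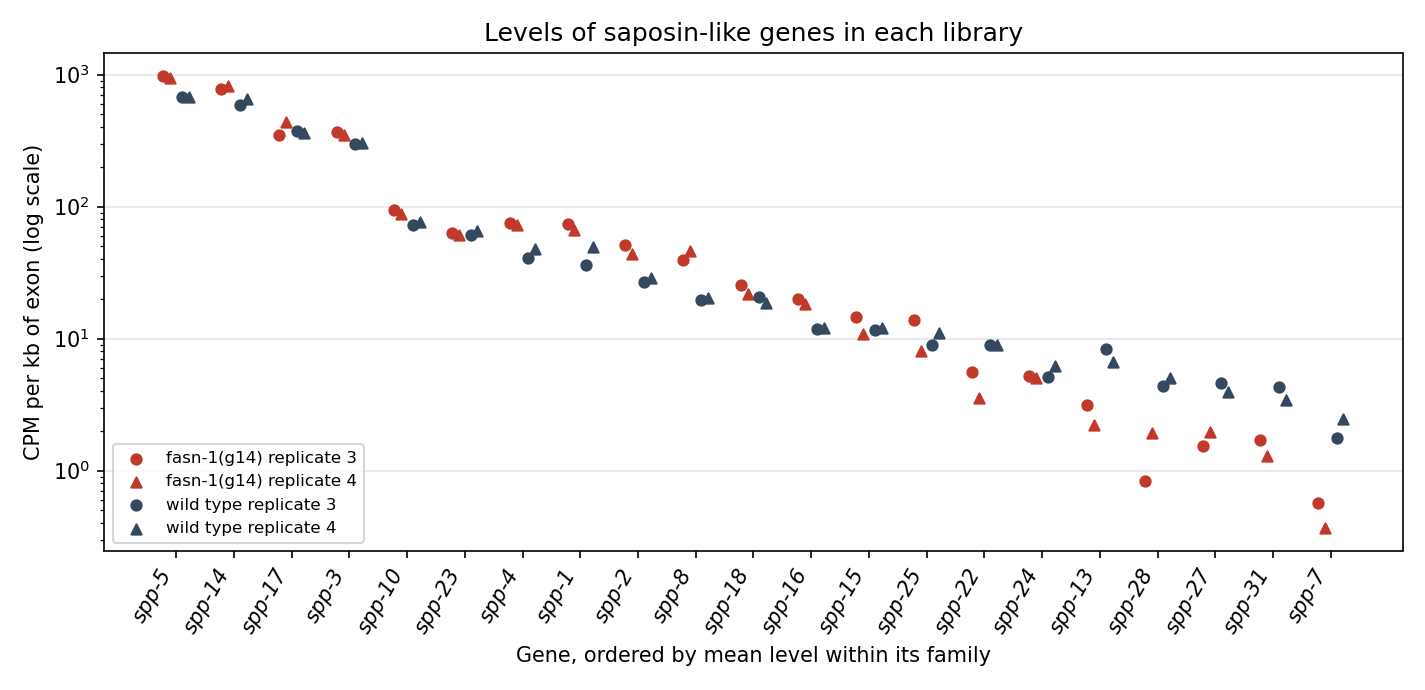
CPM per kb of exon (log axis) of the 21 saposin-like genes in each of the 4 libraries, ordered by level. Mutant points lie above wild-type points for most genes at the left, and below them for spp-22, spp-13, spp-28, spp-27, spp-31 and spp-7 at the right.

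Over all members, both mutant libraries stood above both wild-type libraries for 22 genes (52.4%) and below them for 10 (23.8%), against 31.2% and 32.9% of all genes tested. Of the 10, 4 are the genes that passed the filter only through wild type, and the 38 other members had 22 above and 6 below. The shares of all genes were not taken after the same exclusion, so the counts of the 38 have no background beside them. No protease or saposin-like gene reached a 2-fold gain except spp-8, so the gains were moderate: for the 15 genes that rose, changes ran from 0.36 to 1.06.

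**Figure D4:**
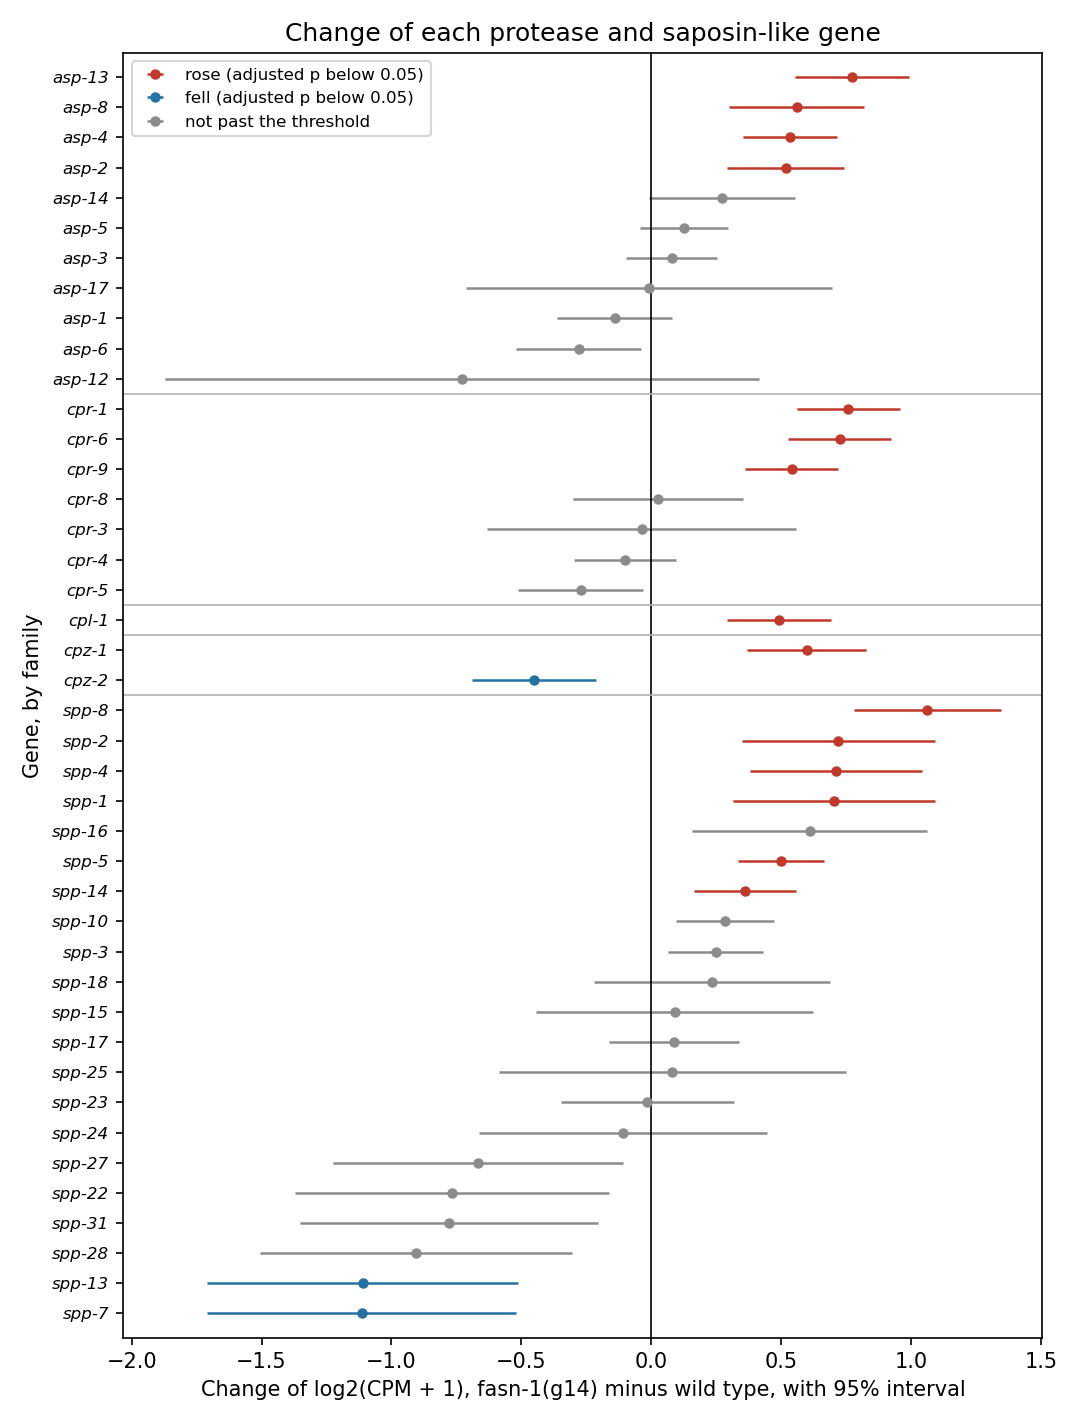
Change of log2(CPM + 1), fasn-1(g14) minus wild type (horizontal axis), of each of the 42 genes with its 95% interval, grouped by family and coloured by the limma call. The 15 genes that rose lie between 0.36 and 1.06, and the 3 that fell are cpz-2, spp-13 and spp-7.

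The calls changed with the library left out. Without wild type replicate 3, 5 of the 18 called members passed, and without wild type replicate 4, 6 passed; 4 genes, asp-13, cpr-1, cpr-6 and spp-8, passed in every fit that left out 1 library. By family, leaving out wild type replicate 3 gave 2 asp, 2 cpr, 0 cpl or cpz and 1 spp gene that rose; leaving out wild type replicate 4 gave 1 asp, 2 cpr, 1 cpz and 2 spp genes, and 0 members fell in either fit. Without mutant replicate 3, and without mutant replicate 4, more members rose and more fell than with all libraries. Over the whole table the number of calls shifted the same way in each of these fits. Counts from fits without a library, here and below, are thus not read as results about the genes counted. No called member changed its sign in any of these fits.

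The members differ in where they lie. Of the 21 protease genes, 8 asp, 6 cpr, 1 cpl and 1 cpz gene are on chromosome V, which holds 18.8% of all genes tested, while the spp genes are spread over chromosomes I, II, III, IV, V and X, with 7 on X. In the following clusters 0 measured members passed. In the cluster of asp-6, asp-12 and asp-5 on chromosome V, which spans 6534 bases, the changes were -0.28, -0.73 and 0.13. In that of asp-1 and asp-17, where asp-15 and asp-16 were not analysed here, the changes were -0.14 and -0.01. The neighbours cpr-5 and cpr-8 had -0.27 and 0.03, and spp-17 and spp-23 had 0.09 and -0.01. Genes within a family are related in sequence, and how reads that fit several members were counted is not given in the sources used here.

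Other genes of the same pathways were read from lists, with 62 of 63 genes measured, of which 12 rose (19.4%, against 4.41% of all genes tested) and 2 fell (3.23%, against 10.7%). Between 7 and 28 rose and between 1 and 4 fell when 1 library was left out, with 28 rises where that was mutant replicate 3. Saposins in mammals work with sphingolipid hydrolases. Of 11 worm genes of such enzymes 5 rose (45.5%, against 4.41% of all genes tested) and 0 fell (against 10.7%), with a median change of 0.12. The same counts came from each fit that left out 1 library, while over all genes tested the rises in those fits numbered 151 to 2346. The acid ceramidase gene asah-1 stood at 72.1 and 78.6 CPM in the mutant, against 33.2 and 33.3 CPM in wild type (limma, adjusted p = 0.00256). Its relative asah-2 rose 2.23-fold, and asm-3, for an acid sphingomyelinase, was 4.72-fold up. The other 6, among them the alpha-galactosidase gene gana-1 and the hexosaminidase gene hex-1, had changes between -0.15 and 0.12.

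Of 14 genes for serine carboxypeptidases and aminopeptidases 5 rose (35.7%, against 4.41% of all genes tested) and 0 fell (against 10.7%), with a median change of 0.24. The cathepsin A-like gene ctsa-2 stood at 218 and 248 CPM in the mutant, against 137 and 118 CPM in wild type (1.83-fold; limma, adjusted p = 0.00617), ctsa-3.1 rose 1.66-fold and the prolyl carboxypeptidase-like gene pcp-1 rose 1.62-fold. Leaving out wild type replicate 3 left 3 of these rises, leaving out wild type replicate 4 left 1, and leaving out mutant replicate 3 gave 8 with 1 fall. With libraries rescaled to one total 3 rose. The same number rose with a pseudocount of 0.5 CPM, with a mean of at least 5 CPM and with edgeR. With a pseudocount of 5 CPM, no filter, DESeq2 or the replicate block, 5 rose.

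Acid proteases depend on the proton pump that acidifies the lysosome and the gut lumen. Of 20 pump genes measured 1 rose and 1 fell, or 5.00% each, against 4.41% and 10.7% of all genes tested, with a median change of 0.09. The rising share is near that of all genes and the falling share below it. The one that rose, vha-6, encodes the pump subunit of the apical gut membrane and stood at 285 and 327 CPM in the mutant, against 213 and 199 CPM in wild type (1.49-fold; limma, adjusted p = 0.0132). The one that fell, vha-5, acts in the epidermis and excretory cell and stood at 48.3 and 55.5 CPM in the mutant, against 75.2 and 70.5 CPM in wild type (0.713-fold; limma, adjusted p = 0.0271). In this list 0 genes rose without wild type replicate 4, leaving out mutant replicate 3 gave 9 rises, and 0 fell once either wild-type library was left out.

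Among 12 other lysosome genes the lysosomal DNase II gene nuc-1 rose, at 89.7 and 87.0 CPM in the mutant, against 54.7 and 53.4 CPM in wild type (1.63-fold; limma, adjusted p = 0.00732), and 11 did not pass, with a median of 0.14. The share that rose was 8.33%, against 4.41% of all genes tested; without mutant replicate 3, 5 rose and 1 fell. The cystatin genes cpi-1 and cpi-2, for inhibitors of cysteine proteases, had changes of -0.23 and 0.01 and did not pass (limma, adjusted p = 0.189 and 0.964). Of 5 regulators of gut and lysosome genes 1 fell (20.0%, against 10.7% of all genes tested): hlh-30, the worm relative of the lysosome regulator TFEB, stood at 78.9 and 59.3 CPM in the mutant, against 116 and 132 CPM in wild type (0.559-fold; log2 change -0.84, SE 0.14; limma, adjusted p = 0.0148). The gut GATA factor genes elt-2 and elt-7 had changes of 0.29 and -0.08 without passing.

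**Figure D5:**
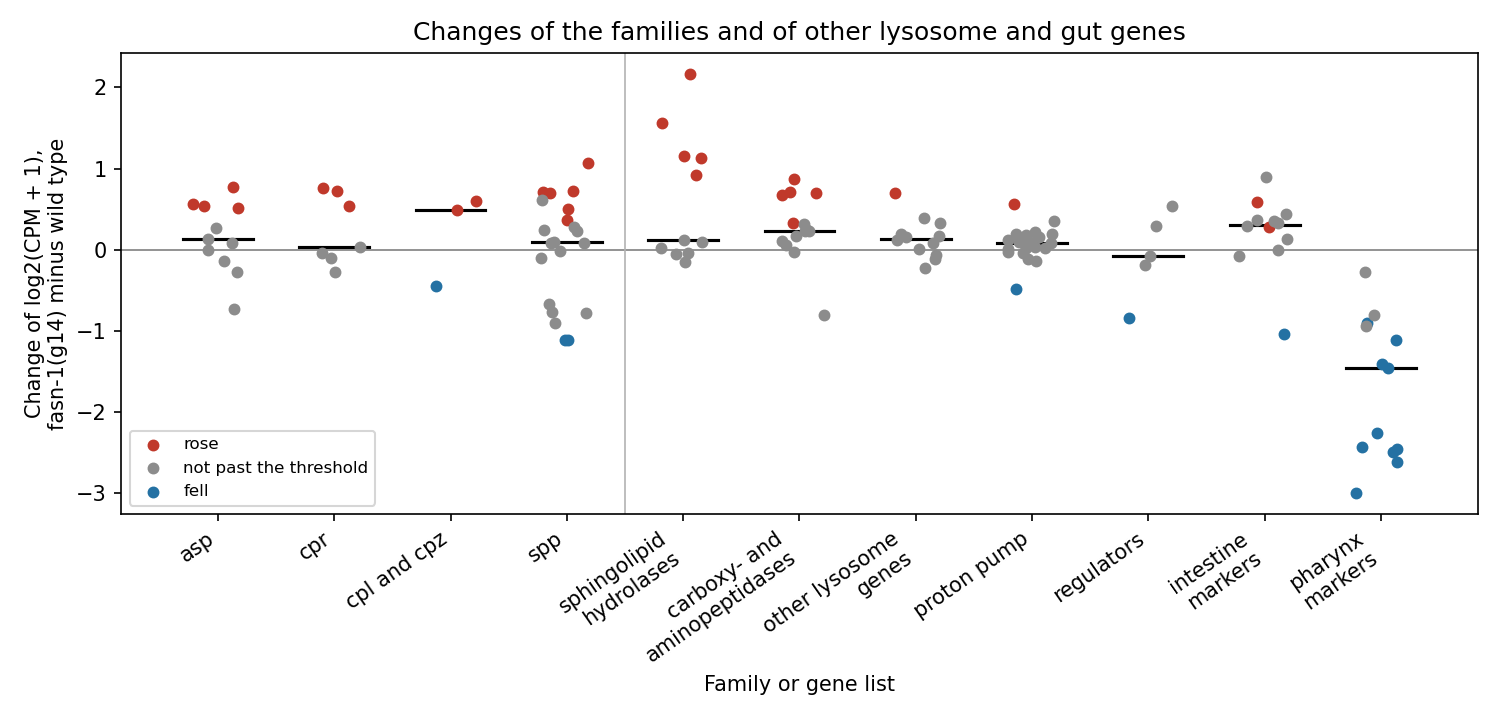
Change of log2(CPM + 1), fasn-1(g14) minus wild type (vertical axis), for each gene of the families and of the other lists, with a line at each median and colours for the limma call. The families and pathway lists have medians between -0.08 and 0.49, and pharynx markers lie below 0.

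Marker counts stand beside 4.41% rises and 10.7% falls among all genes tested. Of 12 intestine markers outside the families 2 rose (16.7%) and 1 fell (8.33%), with a median of 0.31. Their summed level was 911.5 and 1043 CPM in the mutant, against 785 and 816 CPM in wild type. The ratio was 1.22, beside 1.19 for the summed members and 1.07 for all genes tested. None of the intestine markers was at 0, and their part in the gains of the families was not tested; 0 of them passed without either wild-type library, and 6 rose without mutant replicate 3. Of 13 pharynx markers 10 fell (76.9%) and 0 rose (median -1.46; summed level 174 to 369 CPM in the mutant, against 1206 to 1296 CPM in wild type), and of 9 neuron markers 6 fell (66.7%) and 0 rose (median -0.98). Of 12 sperm markers listed 9 were tested and 7 rose (77.8%; median 1.39), with no value above 7.51 CPM. Among them msp-57, msp-53, msp-3, gsp-3 and gsp-4 reached 1 CPM in the mutant libraries only. Those genes are higher in the mutant by definition, so their direction is not read as a result. All of those but gsp-4 are among the rises. With a mean of at least 5 CPM asked for, 0 sperm markers were tested. Of 10 germline and oocyte markers 0 passed (median 0.21). Leaving out mutant replicate 3 moved that median to 0.34. Epidermis markers had 1 rise and 1 fall of 8 (12.5% each), muscle markers 2 falls of 6 (33.3%), and coelomocyte markers 0 of 2. Leaving out wild type replicate 3 gave 6 falls of pharynx and 4 of neuron markers and 2 rises of sperm markers, and leaving out wild type replicate 4 gave 5, 2 and 3. The genes elt-2 and elt-7 stand in both the regulator and the intestine list.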

How the data were processed

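Whole-animal mRNA libraries of 2 fasn-1(g14) and 2 wild-type samples were analysed, grouped by their titles. The values deposited by the authors are a normalized signal per gene, named CPM by the authors, with one column per library. HTSeq 0.12.4, edgeR 3.28.1 and Bowtie2 2.3.3.1 are named, without their roles, per the submitters' processing notes. Genome build, annotation and gene filter: not given in the sources used here. Libraries were made from 1 µg of total RNA with 8 PCR cycles, per the labels' protocols. Left out were 8 columns of other samples.

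Of 13758 rows, 13747 matched 1 gene by transcript identifiers of the Ensembl 115 annotation of WBcel235, which served for names, positions and exon lengths only. Every positive value was a whole multiple of its column's smallest step within 0.001 read (100% of values), so reads were recovered; lacking molecular identifiers, reads need not be separate molecules. The design foresaw a test for CPM, and it was used on this signal: limma 3.58.1 (R 4.3.3) on log2(CPM + 1) with a mean-variance trend, over 12977 genes reaching 1 CPM in 2 or more libraries, two-sided, Benjamini-Hochberg adjusted, threshold 0.05. On the recovered reads edgeR 4.0.16 called 439 rises and 913 falls, and DESeq2 1.42.0 called 507 and 1057. The tests were tried on simulated data. The members, gene lists and tests were chosen with earlier results of these data known. Values per library are given for members past the threshold, for the 3 with the highest CPM per kb in each family and for all cpl and cpz genes; other genes were chosen after their values were seen. Up to 3 genes per pathway list are named by smallest p. No replicate pair repeated a library. With 2 libraries per group, the limma p-values set each group difference against an estimated spread and speak for these samples only. That spread is pooled over both groups and moderated with a trend over all genes, so the wider mutant spread is not modelled apart. Alternatives were other pseudocounts, filters, scaling, tests, a replicate block and leaving out each library.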

Additional observations from a re-analysis of the deposited data

How the results depend on the processing

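Directions of the 18 called members were the same under each alternative that gave a value, and 14 or more kept their call outside the fits that left out a library or the crossed pairing. Requiring a mean of 5 CPM or more, 288 genes rose and 509 fell over the whole table and 0 spp genes fell, because spp-7 and spp-13 were no longer tested; spp-1 and spp-14 lost their call, leaving 4 spp genes that rose. With libraries rescaled to one total, 359 genes rose, 3 spp genes rose and 1 cpr gene, cpr-5, fell, and the uncalled changes of asp-3, cpr-8 and spp-17 became -0.019, -0.067 and -0.010; this shifted the median of all genes to -0.089. With edgeR 913 genes fell, and with DESeq2 1 spp gene fell. Without 1 library the counts ranged from 151 to 2346 rises and 179 to 3268 falls over the table, 1 to 5 and 0 to 3 for asp, 2 to 3 and 0 to 1 for cpr, 0 to 2 and 0 to 1 for cpl and cpz, 1 to 10 and 0 to 4 for spp, and 7 to 28 and 1 to 4 for the pathway lists. Such fits leave 1 group with a lone library, assumed to vary like the other pair. Uncalled changes that crossed 0 there ranged from -1.59 to 0.14 (asp-12), -0.34 to 0.32 (asp-17), -0.35 to 0.28 (cpr-3), -0.062 to 0.12 (cpr-8), -0.10 to 0.28 (spp-15), -0.064 to 0.24 (spp-17), -0.059 to 0.030 (spp-23), -0.22 to 0.0035 (spp-24) and -0.23 to 0.40 (spp-25).

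Same-numbered libraries deviated from their group means with a correlation of -0.21 across genes. From 2 libraries per group this cannot decide whether samples of the groups were handled in pairs. With the replicate number as a block 626 genes rose and 1872 fell, all 18 members kept their call and spp-28 (change -0.91) passed as well. With the crossed replicate block, added after seeing the data, 1197 genes rose and 2310 fell, with 1 asp, 1 cpr and 4 spp genes falling. Depth limits the lowest members most: spp-7 and spp-28 had 6 and 5 reads in their lowest library.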
